A study of Mus musculus with 6 samples.

Results

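The habenula is a small paired nucleus of the epithalamus that lies on top of the thalamus, beside the roof of the ventricle and the stalk of the pineal gland. Transcripts of 7 genes that mark it were followed in RNA from whole mouse hypothalamus, out of 24513 genes counted per library. The genes were Pou4f1, Gpr151, Chrna3, Chrnb3, Chrnb4, Gng8 and Nwd2, taken as a fixed list by gene symbol, and the question was whether epithalamic RNA differed between the libraries. The libraries came from 3 NS-DADm mice and 3 WT mice of strain C57BL/6 aged 3 to 4 months, 1 mouse per library. As known for this mouse line and not from the labels, NS-DADm animals carry whole-body mutations in the deacetylase-activating domain through which nuclear receptor corepressors bind and activate the histone deacetylase HDAC3. WT mice carry the unmutated domain, and no treatment is given for either group.

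The habenula relays signals from the forebrain to the midbrain and brainstem. Its medial part sends the axons of the fasciculus retroflexus to the interpeduncular nucleus, and it is known for a very high density of nicotinic acetylcholine receptors and a role in aversion and nicotine withdrawal. The POU homeodomain factor POU4F1 (BRN3A) is expressed as habenular neurons form and, in mice, is required for much of their gene expression programme. None of the markers is exclusive to the habenula: Chrnb3, for example, is also a gene of midbrain dopamine neurons, and Gng8 of olfactory and vomeronasal neurons.

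Of the 7 genes, Pou4f1 encodes the transcription factor. Chrna3 and Chrnb4 lie side by side with Chrna5 in a cluster of 67.9 kb on chromosome 9 (mm10, the same build as GRCm38). The gaps in the cluster are 2331 bases between Chrna5 and Chrna3 and 1591 bases between Chrna3 and Chrnb4. Because these genes share a locus and yet their counts varied separately between libraries, as given below with their values, the sequences before their RefSeq starts are shown together with that of Pou4f1. Each line gives the 250 bases before the transcription start of RefSeq (GRCm38.p6), 5′ to 3′ on the gene's strand. For Chrnb4 that start lies inside the GENCODE gene, so 235 bases of its window are within the gene span given below. Capitals mark matches, on either strand, to ATNANTNAT, a core of the sites that POU4 factors bind, and to the GC box GGGCGG; no base was shared by both motifs.
Pou4f1 (chr14:104468000-104468249, minus strand): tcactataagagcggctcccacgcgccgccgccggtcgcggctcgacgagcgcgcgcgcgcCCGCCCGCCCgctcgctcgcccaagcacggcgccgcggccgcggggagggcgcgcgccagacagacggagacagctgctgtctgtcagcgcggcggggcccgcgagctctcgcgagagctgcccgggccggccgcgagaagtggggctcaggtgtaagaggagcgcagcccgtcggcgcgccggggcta
Chrna5 (chr9:54980630-54980879, plus strand): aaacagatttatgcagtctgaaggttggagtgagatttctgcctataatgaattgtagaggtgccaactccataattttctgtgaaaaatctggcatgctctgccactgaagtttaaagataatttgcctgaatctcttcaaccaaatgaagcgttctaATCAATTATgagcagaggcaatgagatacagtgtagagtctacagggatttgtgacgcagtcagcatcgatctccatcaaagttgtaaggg
Chrna3 (chr9:55026563-55026812, minus strand): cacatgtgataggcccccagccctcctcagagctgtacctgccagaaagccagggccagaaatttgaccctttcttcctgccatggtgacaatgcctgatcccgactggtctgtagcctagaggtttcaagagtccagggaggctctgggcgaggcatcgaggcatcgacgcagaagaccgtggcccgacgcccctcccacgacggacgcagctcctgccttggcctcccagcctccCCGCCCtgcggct
Chrnb4 (chr9:55048545-55048794, minus strand): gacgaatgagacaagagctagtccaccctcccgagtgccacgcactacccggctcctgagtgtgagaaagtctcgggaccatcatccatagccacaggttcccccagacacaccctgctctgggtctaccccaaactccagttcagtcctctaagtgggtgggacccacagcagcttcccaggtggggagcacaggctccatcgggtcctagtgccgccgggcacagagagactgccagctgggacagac
RefSeq windows were at hand for 5 of the 7 genes, all but Gpr151 and Chrnb3, and none of the 5 held ATNANTNAT, which occurred in 5.37% of 32817 windows of the same length over all genes. The window shown for Chrna5 held 1 match, 91 bases before the start; a second RefSeq window of Chrna5, at a later start, held none and 4 copies of GGGCGG. The GC box GGGCGG occurred in 32.7% of all windows, and in those of Pou4f1, with 2 overlapping copies, Chrna3, with 1 copy 13 bases before the start, and Gng8.

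The 6 libraries held 24.2 to 27.6 M reads (in units of 1e6) on genes, and 1 read corresponded to 0.036 to 0.041 CPM (reads per 1e6 gene reads, scaled with TMM factors). Of 10 hypothalamic neuron markers, among them Agrp, Hcrt and Avp, all were detected and tested, with a summed level of 695 to 816 CPM in NS-DADm and 666 to 728 CPM in WT libraries. Thalamus markers stood apart between the groups. All 14 had lower values in every NS-DADm library than in any WT library, against 8.93% of all genes tested. Of the 14, 6 fell past the threshold (an adjusted p under 0.05), against 0.573% of all genes tested. The list was chosen with earlier results of these data known, so neither share is an independent test of it. The number called was 0 without NS-DADm 2, 1 without WT 3, and 2 without NS-DADm 1 or NS-DADm 3. It was 12 without WT 2 or with DESeq2 or limma voom. The summed level of the 14 was 664 to 762 CPM in NS-DADm against 1011 to 1536 CPM in WT libraries. Anterior pituitary markers reached a summed 2021 CPM in NS-DADm 2, against 200.4 and 203 CPM in the other 2 NS-DADm libraries and 40.5 to 112 CPM in WT libraries.

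Pou4f1 transcripts were at or near 0 in every library. Pou4f1 (chromosome 14, 104461676 to 104467999, minus strand) had 2, 4 and 0 counts in NS-DADm 1, 2 and 3, and 8, 1 and 4 counts in WT 1, 2 and 3. The counts came to 6 in 78.1 M reads of the NS-DADm group and 13 in 81.5 M reads of the WT group, and the groups overlapped. The count of 0 in NS-DADm 3 allows a level of up to 0.114 CPM (3 counts; counting error only). Pou4f1 did not reach the minimum count for testing. Fitted without that minimum, its log2 fold change of NS-DADm over WT was -1.03 ± 0.84 SE (edgeR, Benjamini-Hochberg adjusted p = 0.79), so a difference was not detectable at this depth. The 2 related genes Pou4f2 and Pou4f3, which act in retina and inner ear, had 0 counts in all 6 libraries. With Pou4f1 this low, the list is described below by its genes, and a level of theirs need not come from habenular cells.

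The remaining 6 genes passed the minimum count, and none was past the threshold of an adjusted p under 0.05 between NS-DADm and WT libraries, in edgeR's quasi-likelihood test or in DESeq2 or limma voom. The same fit called 0.654% of the 15894 genes tested, 0.573% of them lower in NS-DADm mice. Without adjustment 1 of the 6, Gpr151, had a p under 0.05 with each of the 3 tools, against 10.9% of all genes tested in edgeR. The groups did not overlap for 1 of the 6 (16.7%), again Gpr151, as they did not for 16.8% of all genes tested, 8.93% with NS-DADm lower. With 6 genes, 1 gene is 16.7%, so neither share sets these markers apart from all genes. Fitted values were below 0 for 4 of the 6 genes and for 48.4% of all genes tested, with a median log2 fold change of -0.12 over the 6 and 0.0040 over all. The mean log2 CPM of the 6 genes was 1.51 ± 0.14 in NS-DADm and 1.68 ± 0.15 in WT mice (SD, n = 3 each), a difference of -0.17 that was close to the spread within each group.

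**Figure D1:**
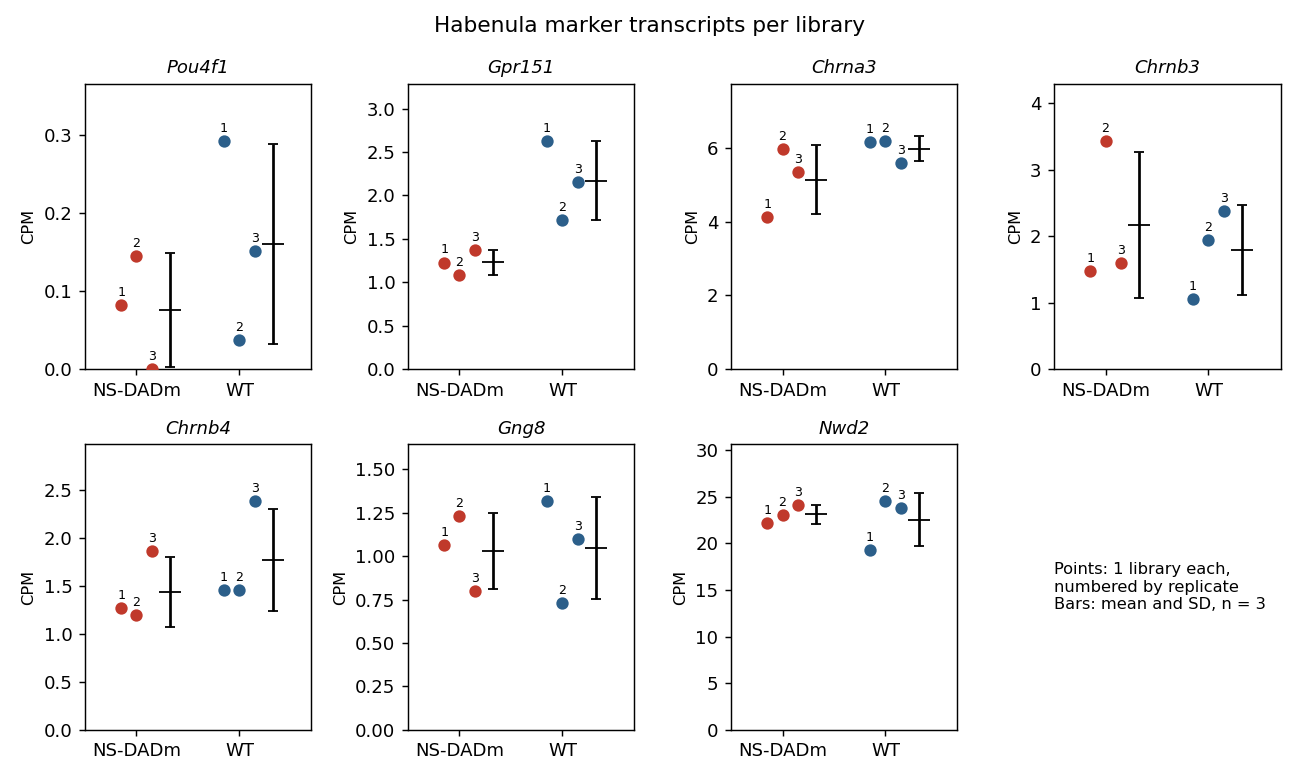
Level in CPM of each of the 7 habenula markers in every library (points, numbered by replicate), with the mean and SD of each group (n = 3). NS-DADm libraries lie left of WT libraries in each panel; only Gpr151 has all 3 NS-DADm points below all 3 WT points, and Pou4f1 reaches 0.292 CPM at most.

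Gpr151 had the lowest fitted value of the 6. It encodes an orphan G-protein-coupled receptor carried on habenular axons to the interpeduncular nucleus. Gpr151 (chromosome 18, 42577881 to 42579652, minus strand, a gene of 1 exon) measured 1.23, 1.09 and 1.37 CPM in NS-DADm 1, 2 and 3, against 2.63, 1.72 and 2.16 CPM in WT 1, 2 and 3. All 3 NS-DADm libraries were below all 3 WT libraries, and WT 1 was the highest. These levels rested on 30 to 36 counts per NS-DADm library and 47 to 72 per WT library. The means were 1.23 ± 0.14 CPM in NS-DADm mice and 2.17 ± 0.46 CPM in WT mice (SD, n = 3 each), with a log2 fold change of -0.82 ± 0.21 SE, a fold of 0.57 with an unadjusted 95% interval of 0.41 to 0.77. The adjusted p missed the threshold (edgeR, Benjamini-Hochberg adjusted p = 0.11). It was past it without WT 2, the lowest WT library (log2 -0.97; edgeR, adjusted p = 0.037), and between 0.16 and 0.40 with each of the other libraries left out. In whole tissue, fewer cells that express a gene and less of its RNA per cell cannot be told apart.

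Thalamus markers varied in step with Gpr151 over the libraries. The likeness of 2 patterns was measured as the root mean square (RMS) difference of their log2 CPM over the 6 libraries, each centred on its own mean, so that a small value means a like pattern. Gpr151 differed from the mean of the 14 thalamus markers by 0.23, from a flat line by 0.43, and from the other 5 tested habenula markers by 0.38 to 0.82. Counting error is smaller in a mean of 14 genes than in a single gene such as Gng8, with 20 to 36 counts per library. The distances to the list and to single markers are therefore not on equal terms. Among the 14527 other genes that averaged 1 CPM or more, the 6 nearest to Gpr151 were Rora, Sntb1, Rgs16, Exph5, Scube2 and Slitrk6, with RMS differences of 0.057 to 0.084. Rora, a nuclear receptor, Rgs16, a regulator of G-protein signalling, and Slitrk6, a neuronal transmembrane protein, belonged to the thalamus list as well, and 0.613% of the genes lay within 0.2 of Gpr151. Rora measured 99.2, 88.1 and 106 CPM in NS-DADm 1, 2 and 3, and 199, 147 and 176 CPM in WT 1, 2 and 3, the same order of libraries within each group as for Gpr151. The search around Gpr151 was added after its values were seen. With the mean thalamus marker level added as a covariate, the log2 fold change of Gpr151 was 0.11 ± 0.46 SE (edgeR, adjusted p = 0.96). Since every NS-DADm library was below every WT library in that mean, the covariate and the genotype cannot be told apart here; the SE without the covariate was 0.21.

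**Figure D2:**
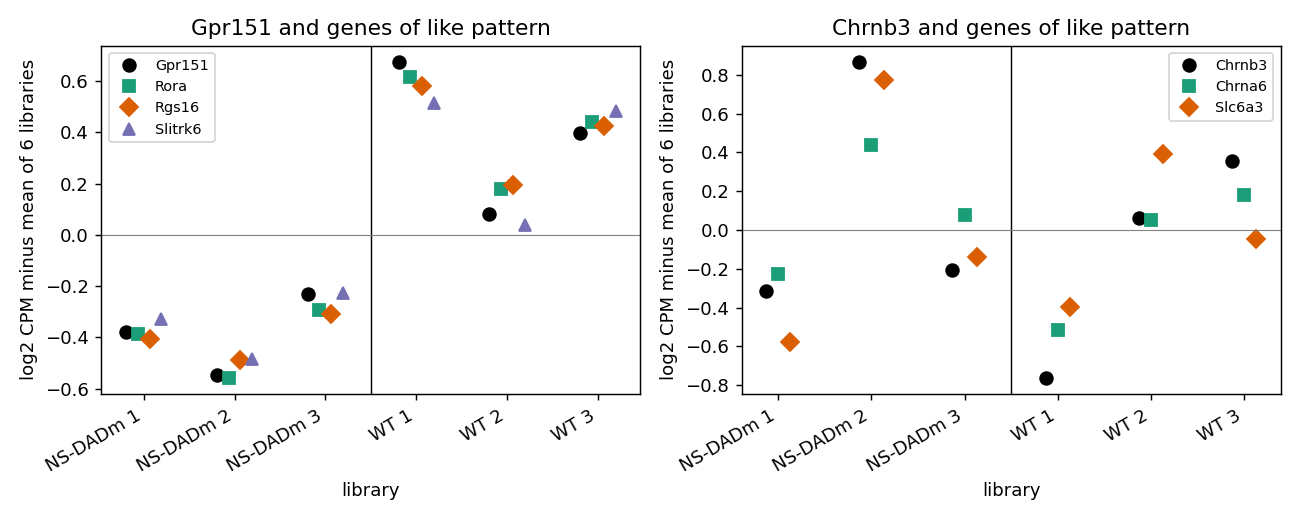
Centred log2 CPM (level minus the mean of the 6 libraries) in each library, NS-DADm left of the line and WT right of it, for Gpr151 with 3 thalamus markers among its nearest genes and for Chrnb3 with 2 of its nearest genes. Gpr151, Rora, Rgs16 and Slitrk6 all lie below 0 in NS-DADm and above 0 in WT libraries, with WT 2 the lowest WT library, whereas Chrnb3 is highest in NS-DADm 2 and lowest in WT 1.

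Chrna3 and Chrnb4 encode the nicotinic receptor subunits alpha3 and beta4, which assemble with each other in the medial habenula and in autonomic ganglia. Neither differed between the groups beyond the spread of the libraries. Chrna3 (chromosome 9, 55010111 to 55026562, minus strand) measured 4.13, 5.97 and 5.36 CPM in NS-DADm 1, 2 and 3, and 6.18, 6.21 and 5.60 CPM in WT 1, 2 and 3. The groups overlapped, with NS-DADm 1 the lowest library. The log2 fold change was -0.21 ± 0.14 SE, a fold of 0.86 with a 95% interval of 0.70 to 1.06 (edgeR, adjusted p = 0.64). Chrnb4 (chromosome 9, 55028154 to 55048779, minus strand) measured 1.27, 1.19 and 1.86 CPM in NS-DADm 1, 2 and 3, and 1.46, 1.46 and 2.39 CPM in WT 1, 2 and 3. Its highest value in each group was that of library 3, and the groups overlapped. The log2 fold change was -0.29 ± 0.25 SE, a fold of 0.82 with a 95% interval of 0.56 to 1.19 (edgeR, adjusted p = 0.75).

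The 2 neighbouring genes did not keep a fixed ratio. Chrna3 counts were 3.26, 5.0 and 2.88 times those of Chrnb4 in NS-DADm 1, 2 and 3, and 4.22, 4.25 and 2.35 times in WT 1, 2 and 3, so that library 3 had the lowest ratio in both groups. Chrna3 counts rested on 101 to 170 reads per library and Chrnb4 counts on 31 to 63. Within groups, Chrna3 varied by 4.34 (NS-DADm) and 0.52 (WT) times the counting noise (chi-square per degree of freedom). Chrnb4 varied by 2.46 (NS-DADm) and 4.31 (WT) times that noise. The third gene of the cluster, Chrna5, which encodes an accessory subunit that joins them, had 12, 4 and 14 counts in NS-DADm 1, 2 and 3, and 6, 13 and 16 counts in WT 1, 2 and 3, with a log2 fold change of -0.17 ± 0.48 SE (edgeR, adjusted p = 0.94), which was 0.24 without NS-DADm 2 and 0.14 without WT 3. Hand2, a factor of sympathetic ganglion neurons, another site of Chrna3 and Chrnb4, had 0 counts in all 6 libraries. Phox2a and Dbh, also peripheral ganglion markers, had 0 to 4 and 1 to 4 counts per library, and a ganglion source was not tested. Of the 7 peripheral ganglion markers 2 were tested and 0 passed, and their summed level was 11.7 to 14.3 CPM in NS-DADm and 10.8 to 15.4 CPM in WT libraries, almost all of it Prph and Avil.

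Chrnb3, which encodes the accessory subunit beta3, varied most between libraries. Chrnb3 (chromosome 8, 27368711 to 27399730) measured 1.47, 3.44 and 1.60 CPM in NS-DADm 1, 2 and 3, and 1.06, 1.94 and 2.39 CPM in WT 1, 2 and 3. Its highest and lowest levels differed 3.24-fold, with NS-DADm 2 far above the other NS-DADm libraries and WT 1 the lowest of all. Within groups it varied by 14.7 (NS-DADm) and 6.86 (WT) times the counting noise. The log2 fold change was 0.29 ± 0.40 SE, a fold of 1.22 with a 95% interval of 0.65 to 2.31 (edgeR, adjusted p = 0.87), and its direction rested on NS-DADm 2, since it was -0.22 without that library. The 6 genes nearest to Chrnb3 in pattern, a search also added after its values were seen, were Gm11762, Pappa2, Chrna6, Carlr, Slc6a3 and 1600029O15Rik, at RMS differences of 0.22 to 0.29. Chrna6 encodes the nicotinic subunit alpha6, the usual partner of beta3 in dopamine neurons, and Slc6a3 the dopamine transporter. Slc6a3 measured 3.44, 8.87 and 4.68 CPM in NS-DADm 1, 2 and 3, and 3.91, 6.79 and 5.0 CPM in WT 1, 2 and 3, with NS-DADm 2 the highest library as for Chrnb3. The 8 midbrain dopamine markers had a summed level of 190 to 205 CPM in NS-DADm and 175 to 206 CPM in WT libraries; 6 were tested and 0 passed, and Pitx3 and En1 stayed at 9 counts or fewer in every library. Th and Ddc on that list are expressed by hypothalamic neurons too. NS-DADm 2 was also the library with the most pituitary transcripts, and the part of any of these in the level of Chrnb3 was not tested.

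Gng8, a G-protein gamma subunit, was the least abundant of the tested genes in CPM. Gng8 (chromosome 7, 16891786 to 16895436) measured 1.06, 1.23 and 0.80 CPM in NS-DADm 1, 2 and 3, and 1.32, 0.73 and 1.10 CPM in WT 1, 2 and 3. The groups overlapped fully, and 20 to 36 counts per library left an interval of 0.66 to 1.47 for a fold of 0.99 (edgeR, adjusted p = 0.99). Among the 11 other gamma subunit genes 10 were tested and 0 passed. The groups did not overlap for 2 of the 10, Gng3 and Gng11, both lower in NS-DADm mice. Over all genes tested that share was 16.8%, and 8.93% with NS-DADm lower. Gng11 had the smallest p of them, with 8.04 ± 1.3 CPM in NS-DADm mice, 10.9 ± 0.25 CPM in WT mice (SD, n = 3 each) and a log2 fold change of -0.45 ± 0.11 SE (edgeR, adjusted p = 0.11, and 0.039 without NS-DADm 1).

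Nwd2, whose product carries NACHT and WD repeat domains, supplied most of the reads of the list. It was the most even of the tested markers by the ratio of its highest to its lowest level, 1.27-fold. Within groups it varied by 1.08 (NS-DADm) and 9.60 (WT) times the counting noise, and that WT value was the largest of the list. Nwd2 (chromosome 5, 63649102 to 63810546) measured 22.2, 23.0 and 24.2 CPM in NS-DADm 1, 2 and 3, and 19.3, 24.5 and 23.9 CPM in WT 1, 2 and 3. WT 1 was the lowest library, and the groups overlapped. The log2 fold change was 0.04 ± 0.09 SE, a fold of 1.03 with a 95% interval of 0.90 to 1.17 (edgeR, adjusted p = 0.94). Nwd2 made up 59.9 to 70.6% of the reads on the 7 genes, so their sum of 31.5 to 36.1 CPM in NS-DADm and 32.3 to 37.6 CPM in WT libraries reflects mainly Nwd2. Without it, the sum was 9.24, 13.1 and 11.0 CPM in NS-DADm 1, 2 and 3, and 12.9, 12.1 and 13.8 CPM in WT 1, 2 and 3, with overlap between the groups. Over 11.7% of its exon length Nwd2 overlaps Gm9954 on the opposite strand, and without knowledge of the strand setting reads there cannot be told apart.

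**Figure D3:**
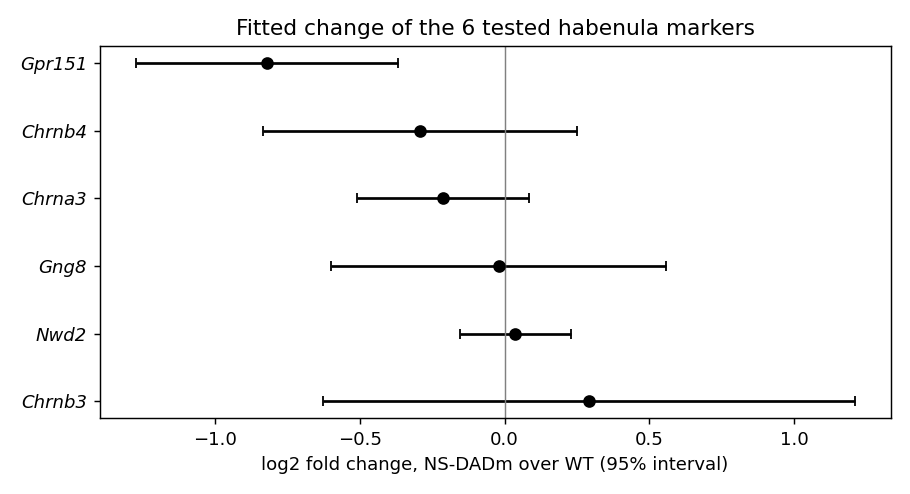
Fitted log2 fold change of NS-DADm over WT with its unadjusted 95% interval for the 6 tested habenula markers. The interval of Gpr151 (-1.27 to -0.37) lies below 0, and the other 5 include 0, from the narrow one of Nwd2 (-0.15 to 0.23) to the wide one of Chrnb3 (-0.63 to 1.21).

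Set against transcript length, the order of the levels was Nwd2, Chrna3, Gpr151, Gng8, Chrnb4, Chrnb3 and Pou4f1. In CPM per kb of merged exon length, Nwd2 averaged 2.19 over the 6 libraries (range 1.85 to 2.35), above every library of the next gene. Chrna3 averaged 1.06 (0.78 to 1.18), Gpr151 0.96 (0.61 to 1.49) and Gng8 0.68 (0.48 to 0.86), and the ranges of these neighbours overlapped. Chrnb4 averaged 0.43 (0.32 to 0.64) and Chrnb3 0.31 (0.17 to 0.54), again with overlapping ranges. Pou4f1 averaged 0.025 CPM per kb and reached 0.063 at most, below the lowest library of Chrnb3. By group means Gpr151 and Chrna3 exchanged places, with Gpr151 at 0.69 ± 0.080 CPM per kb in NS-DADm and 1.22 ± 0.26 CPM per kb in WT mice (SD, n = 3 each), against 0.98 ± 0.18 and 1.14 ± 0.065 CPM per kb of Chrna3.

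The habenula markers differed from each other in pattern over the libraries. In the centred values, WT 1 was the highest of the 6 libraries for Gpr151 and Gng8 and the lowest for Chrnb3 and Nwd2. NS-DADm 2 was the highest for Chrnb3 and the lowest for Gpr151 and Chrnb4. The RMS difference was smallest between Chrna3 and Nwd2, the markers with the most reads, at 0.23, and largest between Gpr151 and Chrnb3, at 0.82. Counting error adds to these differences, most for genes of few counts, and its share was not tested. Within groups Gng8 varied by 1.23 (NS-DADm) and 2.28 (WT) times the counting noise, against 14.7 and 6.86 times for Chrnb3. The mean of the 6 tested genes was flat, with an RMS of 0.15 around its own mean. Nearest to it were Cpq, Slc25a24, Pcdhb14, Psenen, Slc9b2 and Hspa1l, at RMS differences of 0.044 to 0.051, but 68.1% of the genes compared lay within 0.2 of so flat a pattern.

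**Figure D4:**
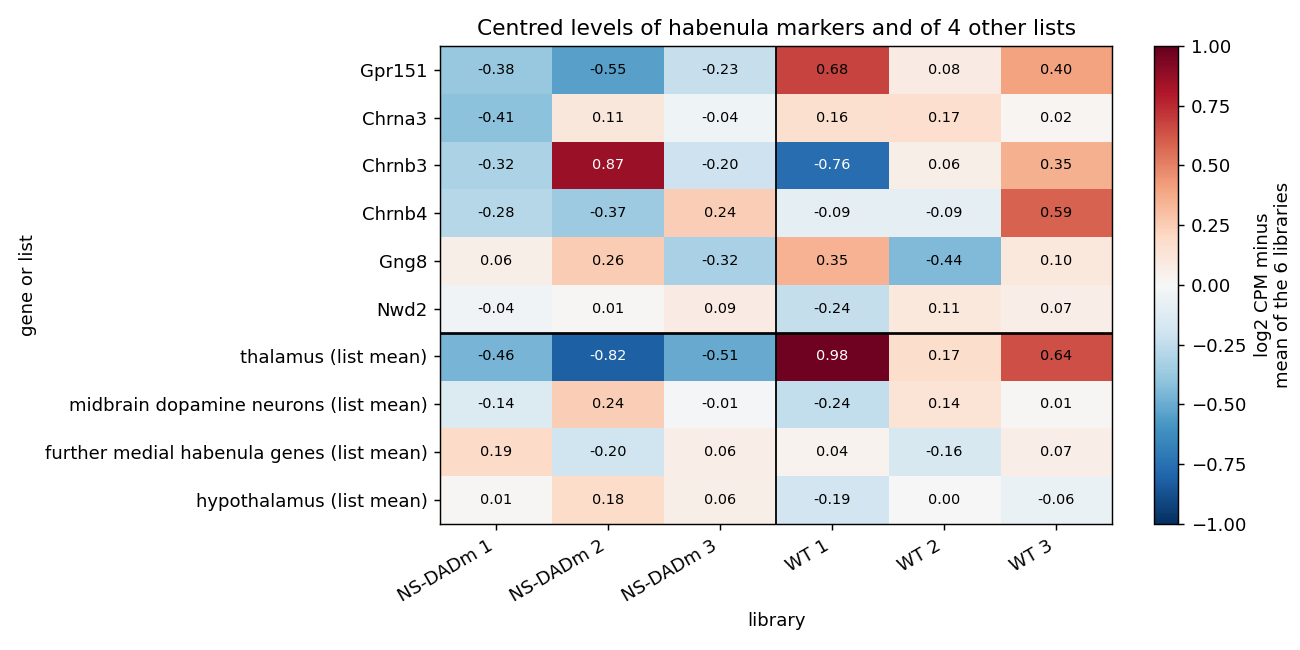
Log2 CPM minus the mean of the 6 libraries for the 6 tested habenula markers (top) and for the means of 4 other marker lists (bottom), NS-DADm libraries left of WT libraries. Gpr151 shows the signs of the thalamus list in all 6 libraries, Chrnb3 is highest in NS-DADm 2 and lowest in WT 1, and Nwd2 lies within 0.24 of 0 throughout.

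Further genes of the medial habenula were fitted in both directions. All 16 were tested and 0 passed, with 7 fitted below 0 and 9 above, a median log2 fold change of 0.0088, and a summed level of 617 to 646 CPM in NS-DADm and 648 to 656 CPM in WT libraries. Most of them are expressed in hypothalamus as well, among them Tac1, Tac2, Adcyap1 and Calb2. Il18, a cytokine gene expressed in the medial habenula, averaged 10.8 ± 0.47 CPM in NS-DADm mice, against 13.4 ± 1.1 CPM in WT mice (SD, n = 3 each), with a log2 fold change of -0.32 ± 0.09 SE (edgeR, adjusted p = 0.17). The groups did not overlap for 3 of the 16 genes, Il18 and Calb2 with NS-DADm lower and Kctd8 with NS-DADm higher, against 16.8% of all genes tested. Calb2, for the calcium-binding protein calretinin, had -0.21 ± 0.06 SE, Adcyap1, for the neuropeptide PACAP, 0.20 ± 0.11 SE, and Kctd8, for an auxiliary subunit of the GABA-B receptor, 0.13 ± 0.08 SE.

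Genes of acetylcholine synthesis and release, which mark the ventral medial habenula and other cholinergic neurons, differed more within each group than between the groups. Chat, for choline acetyltransferase, had 190, 50 and 89 counts in NS-DADm 1, 2 and 3, and 215, 39 and 91 counts in WT 1, 2 and 3. The highest library of each group was library 1, and the groups overlapped. Slc5a7, for the choline transporter, had 393, 126 and 193 counts in NS-DADm 1, 2 and 3, and 445, 119 and 219 counts in WT 1, 2 and 3, and Slc18a3, for the vesicular transporter, had 104, 46 and 64 counts in NS-DADm 1, 2 and 3, and 113, 18 and 50 counts in WT 1, 2 and 3. In NS-DADm 1, which stood highest of its group for these genes, Chrna3 was at its lowest level of all libraries. In the main fit the log2 fold change was 0.0064 ± 0.87 SE for Chat (edgeR, adjusted p = 0.999). It was -0.06 ± 0.73 SE for Slc5a7 and 0.31 ± 0.72 SE for Slc18a3 (edgeR, adjusted p = 0.99 and 0.94). With the mean thalamus marker level as a covariate, Slc18a3 was past the threshold, with a log2 fold change of 4.52 (edgeR, adjusted p = 0.0032). Chat and Slc5a7 then had 4.48 (adjusted p = 0.27) and 3.36 (adjusted p = 0.47). The covariate and the genotype cannot be told apart, so the covariate values cannot be read as a genotype difference. These genes were chosen for naming after their values were seen.

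The 4 genes linked to the lateral habenula, all of them expressed widely in brain, were tested and 0 passed. All 4 had fitted values below 0, with a median log2 fold change of -0.08. The groups did not overlap for 1 of the 4, Gap43, against 16.8% of all genes tested. Chrm3, a muscarinic acetylcholine receptor gene, measured 25.5 ± 0.93 CPM in NS-DADm mice, against 29.4 ± 2.6 CPM in WT mice (log2 -0.21 ± 0.07 SE; edgeR, adjusted p = 0.30, and 0.031 without WT 1), and Pcdh10, Htr2c and Gap43 had -0.09, -0.07 and -0.06.

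Other nicotinic receptor subunits were not called either. Of 8 genes 6 were tested and 0 passed, with 3 fitted below 0 and 3 above and a median of -0.0075. Chrna4 and Chrnb2 encode the subunits of the most common nicotinic receptor of the brain, and neither is a habenula marker. Chrna4 measured 51.2, 45.5 and 50.8 CPM in NS-DADm 1, 2 and 3, and 80.6, 53.6 and 60.5 CPM in WT 1, 2 and 3. The groups did not overlap for 2 of the 6, Chrna4 and Chrnb2, both lower in NS-DADm mice. Over all genes tested that share was 16.8%, and 8.93% with NS-DADm lower. WT 1 was the highest library of Chrna4 as of Gpr151 (log2 of Chrna4 -0.40 ± 0.15 SE, edgeR, adjusted p = 0.42, and 0.049 without WT 2). Chrnb2 had a log2 fold change of -0.10 ± 0.05 SE, Chrna7 of 0.08 ± 0.07 SE and Chrna6 of 0.20 ± 0.21 SE.

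Other tissues, only some of which border the habenula, were read by their own lists. Of 11 pineal genes 5 were tested and 0 passed, and all 5 were fitted above 0. Tph1 and Asmt, which act in melatonin synthesis, had at most 3 and 5 counts in any library, whereas Aanat had 29 to 59. The groups did not overlap for 1 of the 5, Crx, with NS-DADm higher, against 16.8% of all genes tested. Crx had a log2 fold change of 0.66 ± 0.26 SE (edgeR, adjusted p = 0.37). The summed pineal level was 11.3 to 14.5 CPM in NS-DADm and 10.1 to 12.2 CPM in WT libraries. Of 12 choroid plexus markers 9 were tested and 0 passed, with 3 fitted below 0 and 6 above. The groups did not overlap for 2 of the 9, with NS-DADm higher. The summed choroid plexus level was 39.7 to 50.7 CPM in NS-DADm and 42.0 to 46.6 CPM in WT libraries. Ttr, the most abundant transcript of that tissue, had 10 to 31 counts per library. Of 5 hippocampal markers 4 were tested and 1 fell, Prox1 (log2 -0.33 ± 0.06 SE; edgeR, adjusted p = 0.027, and 0.062 to 0.19 without any 1 of NS-DADm 1, 2, 3 and WT 3), and of 5 mammillary and subthalamic markers 5 were tested and 0 passed. Of 10 anterior pituitary markers 8 were tested and 0 passed. All 8 were fitted above 0, with a median log2 fold change of 2.36. The groups did not overlap for 3 of the 8, with NS-DADm higher. The summed pituitary level was 200.4 to 2021 CPM in NS-DADm and 40.5 to 112 CPM in WT libraries. Of 10 hypothalamic markers 1 rose, Trh (log2 0.26 ± 0.05 SE; edgeR, adjusted p = 0.042, and 0.086 to 0.26 without any 1 of NS-DADm 1, 2, 3 and WT 3). Among these lists only that of the thalamus had more than 1 member past the threshold. The lists were chosen with earlier results of these data known, so this contrast is not an independent test. Gpr151 was the habenula marker closest to the thalamus list in pattern, the other 5 differing from that list by 0.58 to 1.01.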

How the data were processed

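Hypothalamic RNA of 3 NS-DADm and 3 WT mice was sequenced, 1 mouse per library. The authors deposited raw read counts per gene symbol, made with TopHat2 2.0.9 on mm10 and HTSeq, per the submitters' processing notes; HTSeq's version, the annotation and the strand setting are not given there. Of the 24518 rows per table, 5 held unassigned reads (13.3 to 14.8% of entries outside genes, 1.00 to 1.06% ambiguous, 14.3 to 16.5% not unique) and were left out.

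Genes were filtered by filterByExpr. The main test was edgeR 4.0.16 (R 4.3.3; TMM factors, robust quasi-likelihood fit, no covariates) with Benjamini-Hochberg adjustment over the 15894 genes left and a threshold of 0.05. SE was the log2 fold change divided by the root of F, and log2 CPM used a prior count of 2. Alternatives were other scaling factors, filters and tools (DESeq2 1.42.0, limma 3.58.1), each library left out, the replicate number as a block, and the thalamus covariate. Leaving out WT 1 with NS-DADm 2, and Chrnb3 or Nwd2 from the marker mean, was decided after seeing the data. No 2 libraries of a group agreed within counting noise (3.41 to 10.4 times that noise).

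The 7 markers and 14 other lists were chosen with earlier results of these data known. Named were the markers, up to 4 genes of smallest p from lists that bear on them, and the 6 genes nearest to their mean pattern. Genes outside this rule were named too. Among them were the genes nearest to Gpr151 and to Chrnb3, Chrna5, the acetylcholine genes, and untested genes such as Hand2 and Tph1. Positions and exon lengths came from GENCODE (GRCm38). Only the closest transcript of another gene was kept for each marker (BLAST 2.17.0). Among these, only Gm9954, antisense to Nwd2, was near-identical to its marker.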

Additional observations from a re-analysis of the deposited data

How the results depend on the processing

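Over 17 alternatives, the 102 log2 fold changes of the 6 tested habenula markers kept their direction and their side of the threshold in 87 cases, reversed in 13 and passed the threshold in 2, both Gpr151. Gpr151 passed without WT 2 (-0.97) and with the replicate block (-0.81; edgeR, adjusted p = 0.048), and its adjusted p ranged from 0.037 to 0.96 over all alternatives. The number of markers past the threshold was thus 1 with the block, and 0 to 1 with each library left out. The deviations of same-numbered libraries from their group means had r of 0.13, 0.087 and -0.035, so the numbers were not taken as pairs, and 4 of 6 libraries correlated best with their own number. With the thalamus covariate, reversed values were 0.11 for Gpr151, -1.39 for Chrnb3, 0.016 for Chrnb4, 0.75 for Gng8 and -0.35 for Nwd2, none past the threshold; the cause was not tested. With each library left out, Chrnb3 ranged from -0.22 to 0.55, Gng8 from -0.23 to 0.18 and Nwd2 from -0.060 to 0.10. Reversed values were -0.22 for Chrnb3 without NS-DADm 2, 0.13, 0.18 and 0.012 for Gng8 without NS-DADm 3, WT 1 and WT 3, and -0.060 for Nwd2 without WT 1. Without WT 1 and NS-DADm 2 together they were -0.49 for Chrnb3, 0.024 for Gng8 and -0.059 for Nwd2. The mean over the 6 markers differed by -0.27 to -0.08 (log2, NS-DADm minus WT) under every setting run for it, the smallest without WT 3. Over all genes, 104 calls became 203 with no count filter, 282 with DESeq2, 409 with the replicate block, 9 with the covariate, 584 without WT 1 and NS-DADm 2 together, and with each library left out 5 to 312 (5, 8 and 10 without NS-DADm 2, NS-DADm 3 and WT 3, 262 and 312 without WT 2 and WT 1). Of genes outside the list, Chrna5 ranged from -0.48 to 0.24 with each library left out, reversed at 0.24 and 0.14 without NS-DADm 2 and WT 3, and Chrna4 reversed to 0.43 with the covariate; Gng11 also passed with no count filter, and Gng11 and Chrna4 with the block. Trh missed the threshold with limma voom (adjusted p = 0.055). Depth limits the low genes: Gng8, with 20 to 36 counts per library, has a fold interval of 0.66 to 1.47, and Pou4f1 could not be tested with a count minimum.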
